A study of Rattus norvegicus with 7 samples.

Results

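The ATF4 branch of the integrated stress response was examined in the thyroarytenoid muscle, the muscle that forms the body of the vocal fold, through 10 genes: the transcription factors Atf4, Atf5 and Ddit3, the amino acid and one-carbon enzymes Asns, Phgdh, Psat1, Shmt2 and Mthfd2, and the stress-induced restraints on growth signalling Sesn2 and Ddit4. Their rows were taken by gene symbol. All 10 of the 10 were found, each once, among the 14702 genes of the authors' deposited table. The libraries came from 3 Pink1-/- rats, which carried a homozygous knockout of Pink1, and 4 wild-type (WT) rats. All 7 were female Long Evans rats, 8 months old, with no treatment named in the labels. The knockout was present in the whole animal, so the muscle shares it with every other tissue. Only the authors' comparison of the genotypes was analysed here, so values per rat, their spread and the depth of each library are unknown.

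In the integrated stress response, kinases that sense viral RNA, endoplasmic reticulum stress, amino acid shortage or haem shortage phosphorylate the translation factor eIF2α. General protein synthesis falls, while the ATF4 mRNA is translated more, and ATF4 then activates genes for amino acid synthesis, amino acid uptake, tRNA charging and stress signalling. Work in human cells has shown that mitochondrial stress reaches this route when the protease OMA1 cleaves DELE1, which activates the kinase HRI, the product of Eif2ak1. In mouse muscle with faulty mitochondria the serine and one-carbon enzymes and secreted hormones of this response are known to rise. PINK1, a kinase on the mitochondrial surface, tags damaged organelles so that the cell can clear them. Because ATF4 is controlled largely at translation, the transcript levels given here do not measure its protein.

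Pink1 itself, the targeted gene, had an implied mean of 8.94 CPM (counts scaled to a common library total) in Pink1-/- muscle and 269 CPM in WT muscle. The authors' deposited table gave a log2 fold change of -4.91 and the adjusted p 8.24e-49, by edgeR's likelihood ratio test with Benjamini-Hochberg adjustment. Implied means here and throughout were computed from the deposited mean and fold change, under the assumption of equal library sizes, and carry no spread between rats.

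None of the 10 genes changed at an adjusted p under 0.05. Of 14702 genes, 448 passed that threshold in the authors' deposited table, a background of 3.05%, made up of 201 genes higher in Pink1-/- muscle (1.37%) and 247 lower (1.68%). At an unadjusted p under 0.05, 1 of the 10 passed, namely Psat1, against 2503 of all genes, or 17.0%. Fold changes were above 0 for 6 of the 10 and below 0 for 4, with a median log2 fold change of 0.04, against a median of -0.02 over all genes. The median size without regard to sign was 0.21 for the 10 genes and 0.28 for all genes.

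The sources used here do not state how the libraries were scaled, which touches every direction below. Over all genes, the log2 of the summed implied CPM in Pink1-/- muscle exceeded that in WT muscle by 0.21. Making those sums equal lowers every log2 fold change by that same 0.21 and leaves its error unchanged. Genes already below 0 can then only move further from 0, which is no check on their calls. With those sums made equal, the number of genes passing became 631 (4.29%), with 63 higher and 568 lower in Pink1-/- muscle. The median of the 10 genes then became -0.17, against -0.23 over all genes. Of the 10 genes 2 stood above 0, against 4205 of all 14702, and Psat1 passed the threshold as lower. Later counts of genes above 0 under equal summed CPM are to be read beside that 4205 of 14702.

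**Figure D1:**
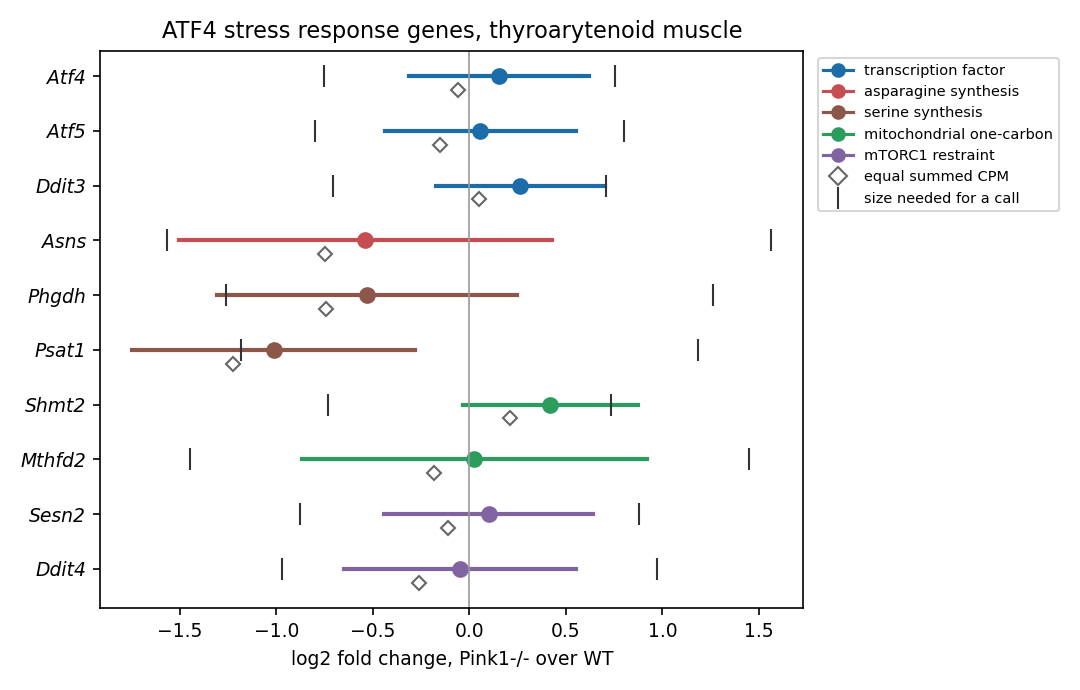
Log2 fold change of Pink1-/- over WT (x axis) for the 10 genes (y axis, grouped by role). Filled points are the authors' deposited values and bars their implied 95% intervals; ticks mark the size each gene would need to be called, and open diamonds the value after scaling to equal summed CPM. The interval of Psat1 alone excludes 0, and no filled point lies beyond its ticks.

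Atf4 (ENSRNOG00000017801), the effector of the response, had implied means of 191 CPM in Pink1-/- and 172 CPM in WT muscle. In the authors' deposited table it had a log2 fold change of 0.15 (implied standard error, SE, 0.24) and the adjusted p 0.807. The implied 95% interval ran from -0.31 to 0.62, so a fall or a rise of 1 on the log2 scale lay outside it.

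Atf5 (ENSRNOG00000020060), an ATF4 relative linked to the mitochondrial unfolded protein response, had implied means of 13.5 CPM in Pink1-/- and 13.0 CPM in WT muscle. In the authors' deposited table its log2 fold change was 0.06 (implied SE 0.25) and the adjusted p 0.944. Ddit3 (ENSRNOG00000006789) encodes CHOP, a factor that acts with ATF4 under lasting stress. Its implied means were 27.5 CPM in Pink1-/- and 22.9 CPM in WT muscle. The log2 fold change of Ddit3 was 0.26 (implied SE 0.22) and the adjusted p 0.601, both from the authors' deposited table. All 3 factors had fold changes above 0 as deposited, and each difference was smaller than 2 times its SE; under equal summed CPM Ddit3 alone stayed above 0, at 0.05, with Atf4 at -0.06 and Atf5 at -0.15.

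The enzymes that make serine and asparagine, classical ATF4 targets, held the 3 lowest fold changes of the 10. Psat1 (ENSRNOG00000013971), phosphoserine aminotransferase of the serine pathway, had implied means of 5.32 CPM in Pink1-/- and 10.7 CPM in WT muscle. That is 2.02-fold lower in Pink1-/- muscle, with an implied 95% interval of 1.22-fold to 3.35-fold lower. The log2 fold change of -1.01 (implied SE 0.37) had an unadjusted p of 0.00651 and 0.111 as its adjusted p in the authors' deposited table, so the difference was not called. It is the one gene of the 10 whose call depends on the scaling: with equal summed CPM the log2 fold change was -1.23 and the adjusted p 0.0333.

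Phgdh (ENSRNOG00000019328) catalyses the step that commits carbon to serine. Its implied means were 3.30 CPM in Pink1-/- and 4.76 CPM in WT muscle. The log2 fold change of Phgdh in the authors' deposited table was -0.53 (implied SE 0.40) and the adjusted p 0.533. Psph, which completes the pathway and is named here after its values were seen, had a log2 fold change of 0.40 and the adjusted p 0.642, both from the authors' deposited table. The deposited fold changes of the 3 enzymes of the serine pathway did not share a direction, but none of them was called, so whether their directions differ is not settled.

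Asns (ENSRNOG00000007546), asparagine synthetase, had implied means of 14.3 CPM in Pink1-/- and 20.8 CPM in WT muscle. The log2 fold change of Asns, -0.54 (implied SE 0.49), had 0.636 as its adjusted p in the authors' deposited table. The SE of Asns was 2.10 times the median of genes of like abundance, the widest by that measure among the 10, and its 95% interval ran from -1.51 to 0.43. Values per rat, which would show where that spread lies, were not analysed here.

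Beside the other enzymes, the mitochondrial one-carbon genes among the 10 had fold changes above 0. Mthfd1l, Aldh1l2 and Mthfd2l, outside the 10 and named after their values were seen, also act in mitochondrial one-carbon metabolism. Their log2 fold changes were -0.43, -1.04 and 0.28 in the authors' deposited table, and none was called. Shmt2 (ENSRNOG00000008106), which splits serine into glycine and a one-carbon unit in the mitochondrion, had implied means of 29.2 CPM in Pink1-/- and 21.8 CPM in WT muscle. The log2 fold change of 0.42 (implied SE 0.23) was the highest of the 10, with an unadjusted p of 0.0696 and 0.345 as its adjusted p in the authors' deposited table. Mthfd2 (ENSRNOG00000010833), the mitochondrial folate enzyme that oxidises that unit, had implied means of 4.20 CPM in Pink1-/- and 4.12 CPM in WT muscle. In the authors' deposited table Mthfd2 had a log2 fold change of 0.03 (implied SE 0.46) and the adjusted p 0.988. The interval of Mthfd2, -0.87 to 0.92, was wide, and with equal summed CPM its value was -0.18, while Shmt2 stayed above 0 at 0.21.

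The pair that restrains mTORC1, the growth kinase complex, was close to 0. Sesn2 (ENSRNOG00000042785), a leucine sensor induced by ATF4, had implied means of 10.2 CPM in Pink1-/- and 9.53 CPM in WT muscle. The authors' deposited table gave Sesn2 a log2 fold change of 0.10 (implied SE 0.28) and the adjusted p 0.904. Ddit4 (ENSRNOG00000057078), also known as REDD1 and induced by glucocorticoids and hypoxia as well, had implied means of 7.45 CPM in Pink1-/- and 7.71 CPM in WT muscle. The authors' deposited table gave Ddit4 a log2 fold change of -0.05 (implied SE 0.31) and the adjusted p 0.962. Under equal summed CPM both were below 0, at -0.11 for Sesn2 and -0.26 for Ddit4.

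**Figure D2:**
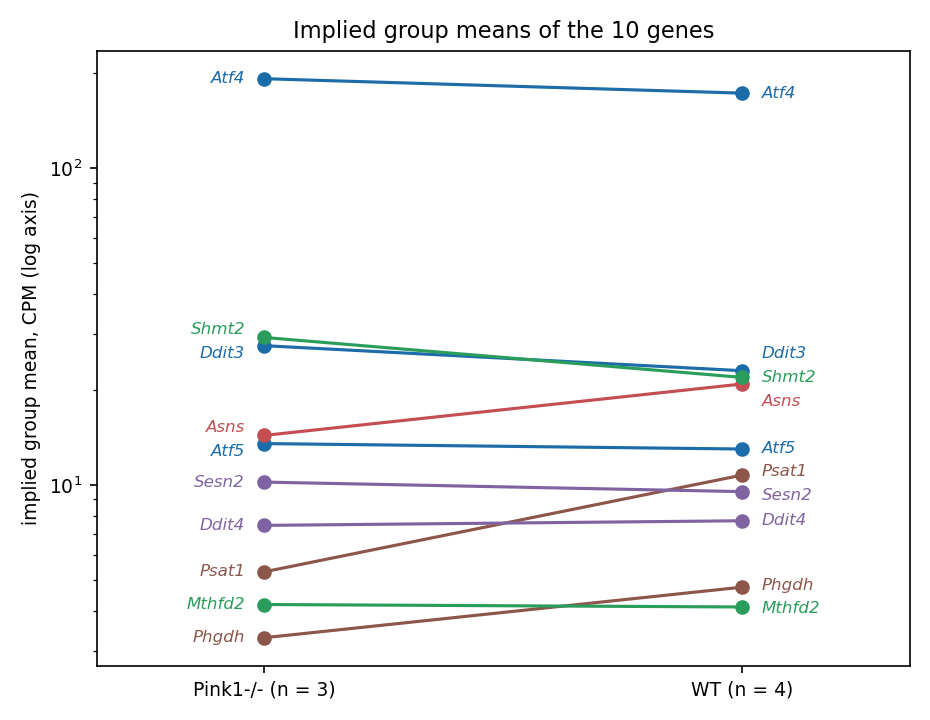
Implied group means in CPM (y axis, log scale) of the 10 genes in Pink1-/- (left) and WT (right) muscle; lines join the values of a gene and colours mark its role as in the plot of fold changes. The steepest line is Psat1, at 5.32 CPM in Pink1-/- and 10.7 CPM in WT muscle; no spread between rats is known.

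The size of change that could have been called differed between the 10 genes. At the deposited threshold, and with each gene's own implied SE, a log2 fold change of 0.71 would have been needed for Ddit3, 0.73 for Shmt2 and 0.75 for Atf4. The same quantity was 1.18 for Psat1, 1.26 for Phgdh, 1.45 for Mthfd2 and 1.56 for Asns. The implied 95% interval lay wholly between -1 and 1 for 7 genes, and Asns, Phgdh and Psat1 were the exceptions, each of them open towards lower values. A 2-fold rise in Pink1-/- muscle was thus outside the interval of every one of the 10 genes as deposited, and a 2-fold fall was outside that of 7. The coverage of these intervals was not checked and a wider test would widen them, so both counts hold only at the deposited width.

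**Figure D3:**
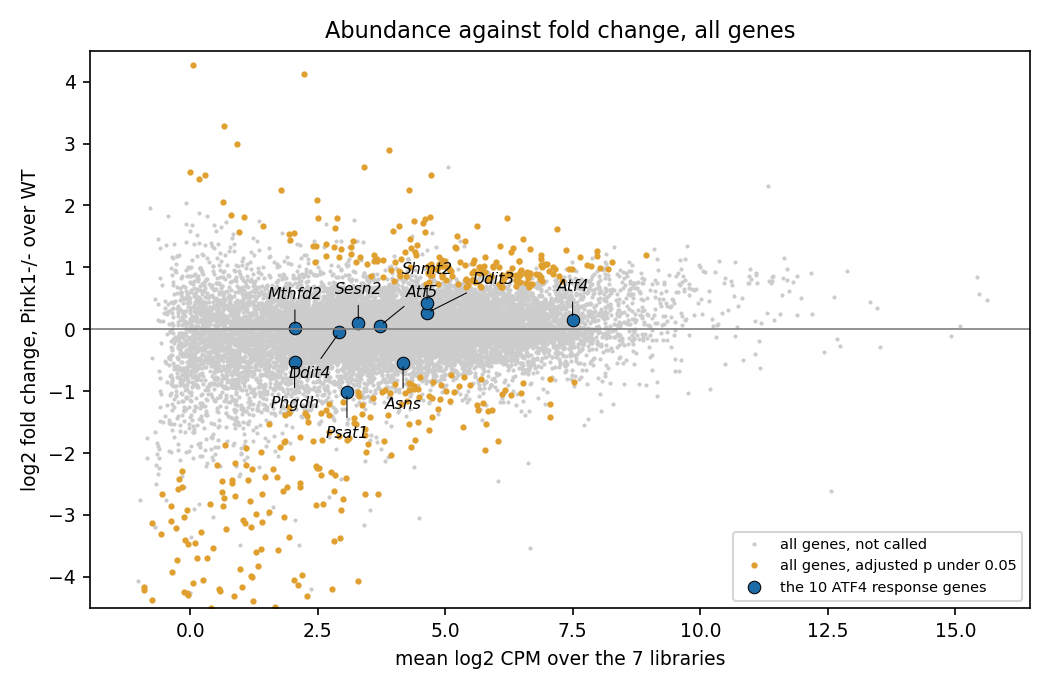
Mean log2 CPM over the 7 libraries (x axis) against log2 fold change of Pink1-/- over WT (y axis) for all genes; called genes are orange and the 10 ATF4 response genes blue. The 10 lie within the cloud of genes that were not called, with Psat1 lowest at -1.01; 58 genes with a size over 4.5 are outside the axis.

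Upstream of ATF4, 16 genes for the eIF2α kinases, the phosphatase subunits and the mitochondrial relay were measured. Of them 1 changed, against 3.05% of all genes. Dele1, whose product relays mitochondrial stress to HRI, rose to an implied 134 CPM in Pink1-/- muscle, against 80.3 CPM in WT muscle. Dele1 had a log2 fold change of 0.74 (implied SE 0.22) and the adjusted p 0.0331, both from the authors' deposited table. The call ended under equal summed CPM, with a log2 fold change of 0.53 and an adjusted p of 0.134. With the likelihood ratios divided by 1.96, their median excess, the call ended too, as did every other call in the lists related to ATF4. The other genes of that relay, named after their values were seen, did not pass: in the authors' deposited table Oma1 had a log2 fold change of 0.49 and the adjusted p 0.197, and Eif2ak1 one of 0.15 and the adjusted p 0.767. Among the other kinases, also named after their values were seen, Eif2ak3 (PERK, which senses endoplasmic reticulum stress) had a log2 fold change of -0.75 and Eif2ak4 (GCN2, which senses amino acid shortage) one of -0.46, at adjusted p of 0.192 and 0.245 by the authors' deposited table. Under equal summed CPM Eif2ak4 passed as lower, at 0.0495, and Eif2ak3 did not, at 0.0564. Of the 16 genes 11 stood above 0, with a median of 0.23, and 8 did so under equal summed CPM.

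Among the 15 measured bZIP partners and other regulators of ATF4, 1 changed, against 3.05% of all genes. Atf3, an early stress factor that ATF4 induces, fell to an implied 7.21 CPM in Pink1-/- muscle, against 15.6 CPM in WT muscle. Atf3 had a log2 fold change of -1.12 (implied SE 0.34) and the adjusted p 0.0425, both from the authors' deposited table. Under equal summed CPM the adjusted p was 0.0079, but that scaling can only lower the unadjusted p of a gene already below 0. The list's median was 0.05, with 8 of 15 above 0.

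Amino acid transporters and glutathione genes under ATF4 had the lowest median of the related lists, -0.42 over 14 genes, of which 4 stood above 0. Of the 14, 2 fell, against 3.05% of all genes called, and 6 had an unadjusted p under 0.05, against 17.0%. Of those 6, 5 were lower and 1 higher, Slc3a2, named after its values were seen, at a log2 fold change of 0.50. Slc7a1, which takes up arginine and lysine, had implied means of 12.6 CPM in Pink1-/- and 24.8 CPM in WT muscle. Its log2 fold change of -0.98 (implied SE 0.29) had 0.0344 as its adjusted p in the authors' deposited table. Slc1a4, an exchanger of neutral amino acids including serine, had implied means of 13.5 CPM in Pink1-/- and 25.1 CPM in WT muscle. For Slc1a4 the authors' deposited table gave a log2 fold change of -0.89 (implied SE 0.27) and the adjusted p 0.0395. Both stayed lower under equal summed CPM, at adjusted p of 0.0044 for Slc7a1 and 0.0043 for Slc1a4. Because that scaling lowers every gene, a smaller unadjusted p was fixed in advance for these 2 and is no check on their calls.

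Stress-induced targets outside metabolism had a median of 0.35 over 14 measured genes, with 10 above 0 and none called. An unadjusted p under 0.05 was found for 5 of the 14, 4 of them above 0, and for 17.0% of all genes. Trib3, a pseudokinase that feeds back on ATF4, had implied means of 2.29 CPM in Pink1-/- and 0.715 CPM in WT muscle. The authors' deposited table gave it a log2 fold change of 1.68 (implied SE 0.57) and the adjusted p 0.0805. Gadd45a, a growth arrest gene, and Vldlr, a lipoprotein receptor, followed by p, with log2 fold changes of 0.60 (adjusted p 0.103) and 0.80 (adjusted p 0.110) in the authors' deposited table. The hormones Gdf15 and Fgf21 were not found among the table's symbols and were not analysed here.

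Promoters of both transporters that fell, and of Trib3 and Iars1 (a tRNA synthetase), chosen because they hold the same letters at fold changes above 0, are shown because ATF4 acts through a short element, the C/EBP-ATF response element, whose core was searched as TGATGNAA (N is any base) on both strands. The window searched ran from 250 bases before the gene start to 50 bases after it, from RefSeq, build GRCr8, and bases before the start are shown. Capitals mark the match, and each sequence is written in the direction of its gene.

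Slc7a1, lower in Pink1-/- muscle, chr12:11664428-11664487, + strand: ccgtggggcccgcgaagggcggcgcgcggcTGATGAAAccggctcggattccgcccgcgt
Slc1a4, lower in Pink1-/- muscle, chr14:98761753-98761812, - strand: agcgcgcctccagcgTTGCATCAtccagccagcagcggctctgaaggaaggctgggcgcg
Trib3, above 0 but not called, chr3:161275534-161275593, - strand: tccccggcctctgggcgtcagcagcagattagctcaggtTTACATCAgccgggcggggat
Iars1, above 0 but not called, chr17:15193653-15193712, - strand: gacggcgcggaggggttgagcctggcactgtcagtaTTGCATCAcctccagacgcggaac

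The match began 30 bases before the start in Slc7a1 and 235 bases before it in Slc1a4, the genes that fell. Genes with fold changes above 0 held the same letters, at 21 bases before the start in Trib3 and 24 in Iars1. The element was found in 1332 of 33469 rat promoters (3.98%), in 7 of 17 cytosolic tRNA synthetase promoters, in 4 of 12 promoters of the stress-induced targets and in none of the 10. The shares over all promoters count every entry, also those that share a symbol, while each list counts only the first entry of a gene. A match is a description and not a bound site, and no match says only that these letters are not in the window. For Psat1, the gene of the 10 with the smallest p, the stretch with the CCAAT box is shown, a common promoter element found in 12549 of all promoters (37.5%) and in 6 of the 10.

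Psat1, chr1:222645509-222645608, - strand, CCAAT in capitals: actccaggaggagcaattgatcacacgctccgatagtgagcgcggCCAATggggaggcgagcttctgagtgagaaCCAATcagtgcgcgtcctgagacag

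The remaining lists of the response held few called genes. For these lists and those that follow, the shares over all genes were 3.05% called and 17.0% at an unadjusted p under 0.05. Serine, glycine, proline and one-carbon enzymes other than the 10 had a median of -0.03 over 23 genes, with 11 above 0, none called and 4 at an unadjusted p under 0.05; the smallest p was that of Aldh1l1, a cytosolic folate enzyme, with a log2 fold change of 0.66 and 0.0913 as its adjusted p in the authors' deposited table. Got2 and Gpt2, mitochondrial aminotransferases, had log2 fold changes of 0.87 (adjusted p 0.170) and 0.84 (adjusted p 0.195) in the authors' deposited table. These 3 enzymes, which had the smallest p values of the list, stood above 0, while 12 of its 23 genes stood below 0. Next by p was Aldh18a1, described below, at a log2 fold change of -2.12.

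Cytosolic aminoacyl-tRNA synthetases, which charge tRNAs, were above 0 in 18 of 19 genes with a median of 0.20, but none was called or had an unadjusted p under 0.05, and 9 of 19 were above 0 under equal summed CPM. Sars1 had the smallest p of them, with a log2 fold change of 0.41 and 0.297 as its adjusted p in the authors' deposited table, followed by Iars1 and Vars1, each at 0.40. Genes of the unfolded protein response of the endoplasmic reticulum had a median of -0.17 over 23 genes, with 7 above 0, none called and 2 at an unadjusted p under 0.05. Creld2, an endoplasmic reticulum stress gene, led them with a log2 fold change of -1.07 and 0.169 as its adjusted p in the authors' deposited table. Ero1b, an oxidase, and Pdia4, a disulfide isomerase, followed at -0.71 and -0.52 in the authors' deposited table.

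The list of mitochondrial chaperones, proteases and related genes, the other arm of the mitochondrial stress response, had a median of 0.42 over 19 genes, with 16 above 0 and 8 at an unadjusted p under 0.05, all 8 of them above 0. No chaperone or protease was called. Endog, a mitochondrial endonuclease on the list, rose: its implied means were 27.6 CPM in Pink1-/- and 13.8 CPM in WT muscle. The log2 fold change of 1.0 (implied SE 0.27) had 0.0134 as its adjusted p in the authors' deposited table, and the call ended under equal summed CPM, at 0.0603. The sestrin and mTORC1 list had a median of 0.22 over 22 genes with none called. In it 4 genes had an unadjusted p under 0.05, close to the 17.0% of all genes. Rragd, a GTPase that signals amino acid supply, led them at a log2 fold change of 0.80 and 0.0738 as its adjusted p in the authors' deposited table. Eif4ebp1, a repressor of translation, and Deptor, an mTOR inhibitor, came next at 0.58 and 0.48 in the authors' deposited table.

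Genes induced by glucocorticoids or hypoxia, which also act on Ddit4, had a median of 0.21 over 18 genes with none called and 2 at an unadjusted p under 0.05. In the authors' deposited table their smallest p values were those of the metallothionein Mt2A (log2 fold change 1.43, adjusted p 0.0870), the prolyl hydroxylase Egln3 (0.75, adjusted p 0.0885) and the transcription factor Zbtb16 (0.45, adjusted p 0.322). Subunits of respiratory complex I, given for comparison, were above 0 in 31 of 31 with a median of 0.67, and 7 rose, led by Ndufs7 with a log2 fold change of 1.11 and 0.0084 as its adjusted p in the authors' deposited table. Under equal summed CPM, 1 of the 7 calls, that of Ndufs7, was kept. The 10 ATF4 response genes stood at a median of 0.04 in the same libraries; the difference between the lists was not tested.

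**Figure D4:**
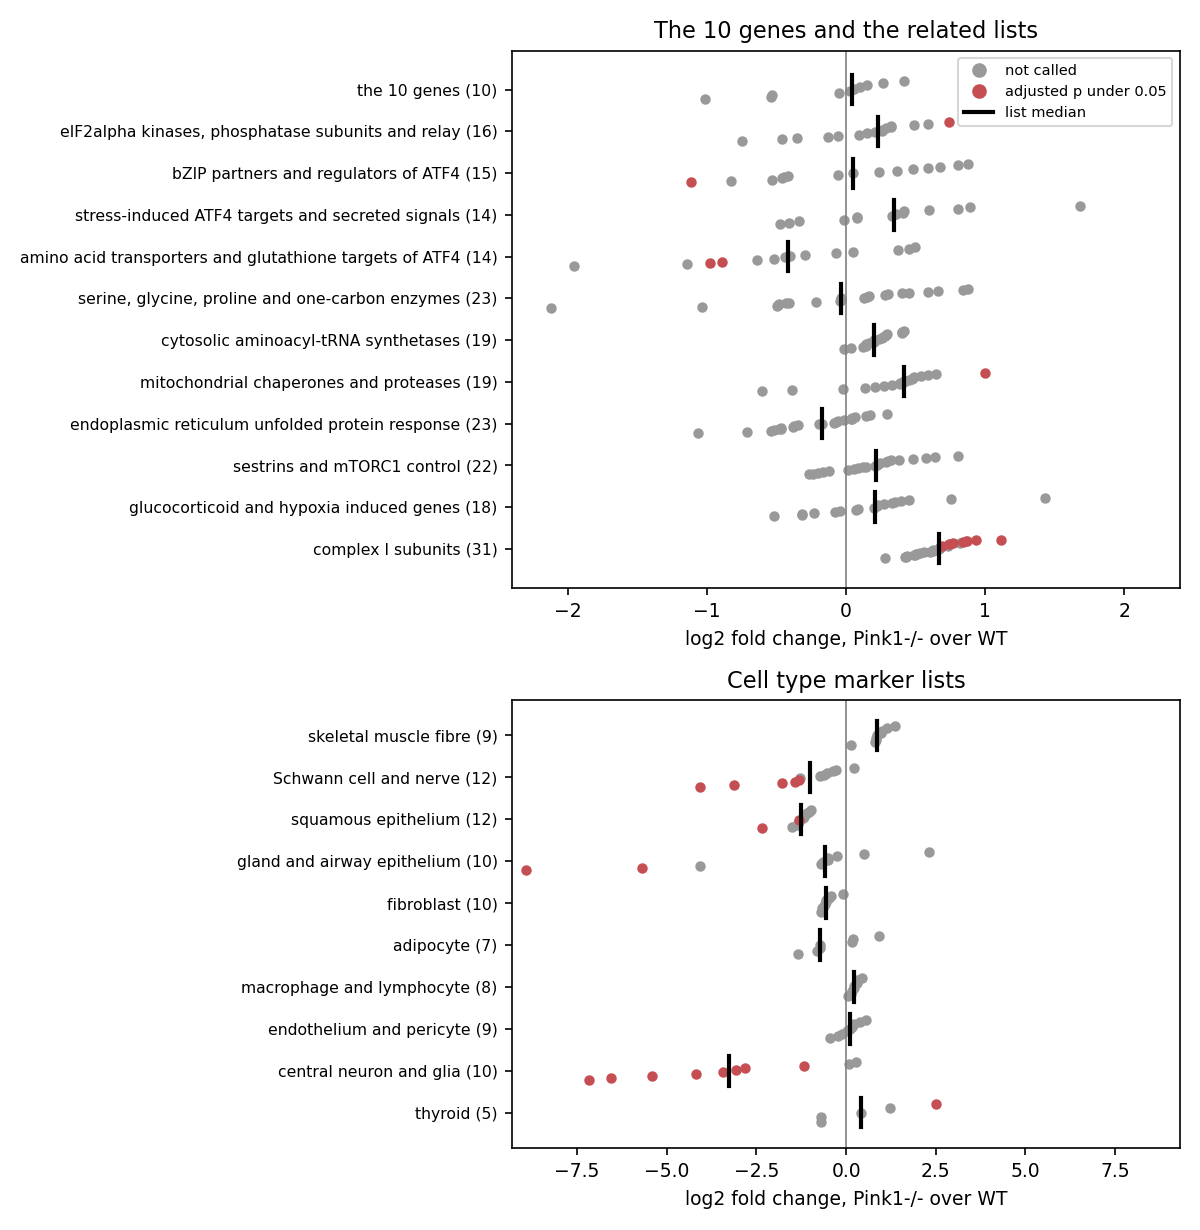
Log2 fold change of Pink1-/- over WT (x axis) for each gene of the lists (y axis, number of genes found in brackets); red points are called, black bars are list medians, and the lower panel, on a wider axis, gives markers of cell types. The 10 genes centre on 0.04, the transporters on -0.42 and complex I on 0.67. Of the markers of Schwann cell and nerve 11 of 12 lie below 0, and of those of squamous epithelium 12 of 12.

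Markers of several cell types differed between the genotypes, and in bulk muscle fewer cells of a type and less RNA per cell cannot be told apart. The shares over all genes were 3.05% called and 17.0% at an unadjusted p under 0.05. Defining markers of the labelled tissue were present: the 9 measured skeletal muscle markers summed to 83466 CPM in Pink1-/- and 46537 CPM in WT muscle. Most of both sums was Myh4, named after its values were seen, with a log2 fold change of 0.84 and the adjusted p 0.605 in the authors' deposited table. All 9 stood above 0, none was called and 4 had an unadjusted p under 0.05, with a median of 0.87. Myh1, Myh2 and Ttn were not found under those symbols. These 9 are mostly general and fast fibre genes. The slow fibre genes Myh7 and Myl3, outside the list and named after their values were seen, were called lower. Their log2 fold changes were -5.38 and -2.30 in the authors' deposited table, so the 9 do not describe every fibre type. Markers of squamous epithelium, which lines the vocal fold, summed to 1370 CPM in Pink1-/- and 2975 CPM in WT muscle, with 0 of 12 above 0 and 2 called lower. Schwann cell and nerve markers summed to 355 CPM in Pink1-/- and 594 CPM in WT muscle, with 1 of 12 above 0 and 5 called lower. Gland and airway markers summed to 5950 CPM in Pink1-/- and 13744 CPM in WT muscle, with 2 of 10 above 0 and 2 called lower. Most of the WT sum was Muc5b, a mucin; without it the other 9 summed to 5317 CPM in Pink1-/- and 3010 CPM in WT muscle, of which Bpifa1, an airway secretory gene, gave 4714 CPM in Pink1-/- and 944 CPM in WT muscle. Fibroblast markers summed to 3006 CPM in Pink1-/- and 4323 CPM in WT muscle, with 0 of 10 above 0, none called and 3 at an unadjusted p under 0.05.

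Central neuron and glia markers were called lower in 8 of 10. Their sum of 219 CPM in Pink1-/- and 248 CPM in WT muscle was mostly Aqp4, a water channel that fast muscle fibres also express, and without it the other 9 summed to 15.8 CPM in Pink1-/- and 80.0 CPM in WT muscle. Of 5 thyroid markers 3 stood above 0, and 1 of these, Tg, was called higher. The 2 below 0, Nkx2-1 and Foxe1, named after their values were seen, had log2 fold changes of -0.70 and -0.71 and were not called. The part of these cell type markers in the values of Psat1, Atf3, Slc7a1 and Slc1a4 was not tested, and neither was that of muscle fibre markers in the values of Dele1 and Endog. Macrophage and lymphocyte markers (median 0.23 over 8 genes), endothelial markers (median 0.12 over 9) and adipocyte markers (median -0.71 over 7) held no called gene, and 0, 1 and 2 genes of them in that order had an unadjusted p under 0.05. Of the 7 adipocyte markers 3 stood above 0, and the 7 summed to 175 CPM in Pink1-/- and 106 CPM in WT muscle. The 2 with an unadjusted p under 0.05, named after their values were seen, were Fabp4, the most abundant of the 7, at a log2 fold change of 0.92, and Plin1 at -1.33.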

How the data were processed

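RNA was sequenced from thyroarytenoid muscle of 3 Pink1-/- and 4 WT rats; per the labels' protocols, TruSeq libraries were made from total RNA of frozen muscle. Each library is a separately numbered rat. The submitters' processing notes name RSEM and edgeR 3.9 without roles; for the scaling, filter, build and strand setting the sources used here give nothing. The table deposited by the authors holds, per the file headers, the log2 fold change, mean log2 CPM, likelihood ratio score, p-value and adjusted p-value for 14702 genes; it has no counts per library, so depth and precision per library are unknown, and the planned count test could not be run.

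From these values, an SE was computed as the size of the log2 fold change over the root of the likelihood ratio. A normal 95% interval was taken from it, whose coverage was not checked. The rescaling and readjustment steps, and the estimate of the factor used for the wider test, were tested on simulated data. Dividing the likelihood ratios by that factor was not tested in this way. A gene was called at adjusted p under 0.05. Genes named were the 10, Pink1, and from each list up to 4 called genes or, with none called, the 3 with the smallest p; exceptions are said to be chosen after their values were seen. The 10 genes and the 21 lists (306 of 336 genes found, 6 by an older symbol) were chosen with earlier results of these data known. Promoters came from the RefSeq table of GRCr8 by symbol, and 6012 of its entries share a symbol with another. Python 3.11.15, pandas 2.3.3 and scipy 1.17.1 were used. Alternatives were 2 scalings, a wider test, a filter at 1 CPM and an adjusted p under 0.1.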

Additional observations from a re-analysis of the deposited data

How the results depend on the processing

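Scaling to equal summed CPM made 1 of the 10 genes called in place of none, Psat1 at a log2 fold change of -1.23. The median of the 10 became -0.17, against -0.23 over all genes, with Atf4 at -0.059, Atf5 at -0.15, Mthfd2 at -0.18 and Sesn2 at -0.11. Of 12 called genes in the 11 related lists that scaling kept 4, ended 8 and added 3, namely Eif2ak4, Ndrg1 and Slc7a3, each lower in Pink1-/- muscle. Since it lowers every log2 fold change, it favours lower calls over higher ones by construction. Dividing the likelihood ratios by 1.96, the factor by which their median exceeded that of a chi-square variable, left 14 genes called in all (4 higher and 10 lower in Pink1-/- muscle) and none of the 12, so Dele1, Atf3, Slc7a1, Slc1a4, Endog and the complex I calls all rest on the deposited width of the test, as do the implied intervals. Centring on the median fold change (480 genes called) and a mean of at least 1 CPM (377 of 14320) left none of the 10 called, as did an adjusted p under 0.1. The first kept all 12 list calls and the second 11, losing Ndufa2.

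edgeR's quasi-likelihood test, DESeq2 and leaving out each replicate were planned and not run, since they need values per library. No paired analysis was possible because the table holds no values per library and the rats are numbered individually. Depth was unknown, and the precision of low genes such as Mthfd2 and Phgdh is set by the wide intervals above. P-values come from edgeR's likelihood ratio test of a genotype difference over these 7 rats and do not measure the spread between them.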

Other observations

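Mitochondrial aminoacyl-tRNA synthetases, which charge tRNAs for translation inside the mitochondrion, were added as a list after values of these data were seen, so their counts describe these libraries only. Of 17 genes 16 stood above 0, with a median log2 fold change of 0.38, and 12 did so under equal summed CPM. Sars2, the mitochondrial seryl-tRNA synthetase, rose to an implied 9.36 CPM in Pink1-/- muscle, against 4.13 CPM in WT muscle. Sars2 had a log2 fold change of 1.18 (implied SE 0.36) and the adjusted p 0.0415, both from the authors' deposited table, and the call ended under equal summed CPM, at 0.0879.

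Aldh18a1, the enzyme that opens proline synthesis, is named after its values were seen for its uneven precision. Its log2 fold change of -2.12 had an implied SE of 0.94 and 0.212 as its adjusted p in the authors' deposited table, and that SE was 3.42 times the median of genes of like abundance. Asns, at 2.10 times, is the other ATF4 target with a wide SE at its level described here.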
